A study of Mus musculus with 9 samples.

Results

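The leukocyte integrins described here are 9 subunit genes, the alpha subunits Itgal, Itgam, Itgax, Itga4, Itga5 and Itga6 and the beta subunits Itgb1, Itgb2 and Itgb7. They were chosen by symbol in a table of 46078 mouse genes, in which each of the 9 had 1 row. Their RNA was measured in 9 libraries from 3 kinds of cultured macrophage of C57BL/6J mice, 3 libraries each. FLM_G are fetal liver macrophages from gestational days 15 to 19, grown in medium with 10% fetal bovine serum and 30 ng/ml recombinant mouse GM-CSF. FLM_M are fetal liver macrophages of the same gestational days, grown in 20% fetal bovine serum and 30% L-cell supernatant, which supplies M-CSF. BMM are bone marrow macrophages. The medium and the age of the mice for BMM are not stated in the sources used here. All cultures were at least 8 weeks old and had been plated in triplicate wells 1 day before harvest with trypsin, so the spread between libraries of a culture may be that of wells, and p-values measure only that spread.

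Integrins are adhesion receptors made of 1 alpha and 1 beta chain, and the beta chain largely decides which alpha chains can reach the cell surface. In leukocytes the product of Itgb2 (CD18) pairs with those of Itgal (CD11a), Itgam (CD11b), Itgax (CD11c) and Itgad (CD11d), and these pairs bind ICAM molecules and complement fragments. The product of Itgb1 (CD29) pairs with those of Itga4, Itga5 and Itga6, which bind VCAM-1 and fibronectin, fibronectin, and laminins. The product of Itgb7 pairs with that of Itga4, to bind MAdCAM-1 and VCAM-1, or with that of Itgae, to bind E-cadherin. Most tissue macrophages carry CD11b, while alveolar macrophages of the mouse are known for high CD11c and low CD11b. RNA levels do not show how much of a pair is at the surface.

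Levels are given as scaled FPKM, the deposited FPKM (fragments per kilobase, adjusted for library size) divided by a factor per library (0.801 to 1.14). They are per length and so can be compared between genes. Depth was judged in genes with 1 transcript, by the commonest value of FPKM times length in kilobases between 0.02 and 0.045. Taken as 1 read, that value gave 28400000 to 35500000 reads per library, a range that the chosen window limits. Libraries of the same culture correlated at 0.986 to 0.992 over all genes tested, and libraries of different cultures at 0.785 to 0.936. Macrophage markers were present, with 9 of 10 at a mean of at least 5 scaled FPKM in FLM_G and 10 of 10 in both FLM_M and BMM. The exception in FLM_G was Aif1, at 0.188 ± 0.164 (SD, n = 3). Of 10 T and NK cell markers, none reached a mean of 1 in any culture. The same held for 6 dendritic cell, 7 mast cell and basophil, and 6 fibroblast and stromal markers. Of the endothelial markers, Cdh5 averaged 4.28 in FLM_G and Kdr 6.63 in FLM_M. The erythroid marker Epor averaged 5.24 in FLM_G and 2.33 in FLM_M, and the hepatocyte marker Afp 2.19 in FLM_M and 1.79 in BMM. Of 8 neutrophil markers, S100a8 alone exceeded 1, and the list summed to 49.7 to 56.7 in FLM_G, 9.51 to 12.3 in FLM_M and 2.69 to 3.51 in BMM. Of 6 megakaryocyte and platelet markers, Pf4 alone exceeded 1. The list summed to 1.11 to 1.27 in FLM_G, 144 to 187 in FLM_M and 189 to 198 in BMM. Itgb3 of the same list did not follow that order, at 0.456 in FLM_G, 0.139 in FLM_M and 0.332 in BMM. Itga4 and Itga6 were also lowest in FLM_G, but their FLM_M and BMM ranges overlapped. The part of these markers in the results was not tested. Xist averaged 48.5 in FLM_G, 70.9 in FLM_M and 0.00201 in BMM, and the Y-linked Ddx3y averaged 0.0055 in FLM_G, 0 in FLM_M and 9.2 in BMM. Sex-linked expression thus divided the fetal liver cultures from BMM, and sex and tissue of origin cannot be told apart in comparisons with BMM.

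Differences were tested with limma on log2(scaled FPKM + 1) over the 11952 genes with at least 1 FPKM in at least 3 libraries, and called at an adjusted p under 0.05 (Benjamini-Hochberg). All 9 integrin genes entered the test. Itga6 passed this minimum through FLM_M and BMM alone, and Itgb7 through BMM alone, so a difference from those cultures follows from how they entered. FLM_G against FLM_M gave 8 called members, where 70.6% of all genes tested were called, with 3 higher (35.5% of all genes) and 5 lower (35.1%). FLM_G against BMM gave 9, where 68.0% of all genes were called, with 3 higher (33.8%) and 6 lower (34.1%). FLM_M against BMM gave 4, where 44.6% of all genes were called, with 1 higher (22.7%) and 3 lower (21.9%). Calls were thus common among all genes. Changes of at least 2-fold on this log2 scale that were called numbered 5 in FLM_G against FLM_M (21.4% of all genes), 7 in FLM_G against BMM (18.8%) and 2 in FLM_M against BMM (7.03%). The comparisons share libraries and are not independent of each other. The deposited counts, used only as an alternative, may have been made with the opposite strand setting, which was not tested, so the count values given beside some genes may not measure those genes' own reads.

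**Figure D1:**
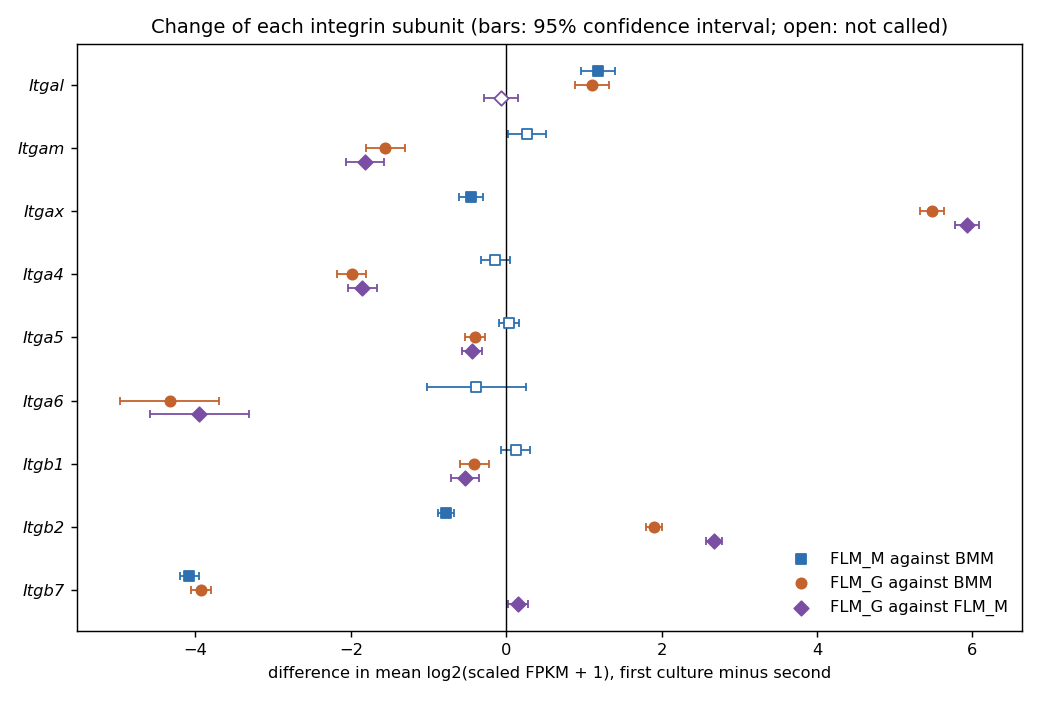
Difference of each integrin gene in mean log2(scaled FPKM + 1) (horizontal axis) for FLM_M against BMM (squares), FLM_G against BMM (circles) and FLM_G against FLM_M (diamonds), with 95% confidence intervals; filled symbols were called. Itgax lies at 5.48 in FLM_G against BMM and at 5.94 in FLM_G against FLM_M, Itga6 and Itgb7 at the low end, and 5 open squares cluster near 0 for FLM_M against BMM.

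Itgb2, the common beta chain of the CD11 group, was the most abundant of the 9 in FLM_G. Itgb2 stood at 751, 771 and 756 scaled FPKM in the FLM_G libraries, at 123, 113 and 117 in FLM_M, and at 198, 205 and 203 in BMM. The 3 cultures did not overlap, with FLM_G highest and FLM_M lowest. It averaged 759 ± 10.7 in FLM_G (SD, n = 3), which placed it 85 in order of level among the 11952 genes, 118 ± 5.03 in FLM_M and 202 ± 3.79 in BMM. Itgb2 was 6.44-fold higher in FLM_G than in FLM_M (log2 difference 2.68, SE 0.05, adjusted p = 1.57e-10). It was 3.76-fold higher in FLM_G than in BMM (1.91, SE 0.05, adjusted p = 1.6e-09). In FLM_M it fell by 0.77 on the log2 scale relative to BMM (SE 0.05, adjusted p = 1.68e-06), a call that the count table did not give (-0.29 by edgeR, adjusted p = 0.486). The counts of FLM_G replicate 3 were low, with 141 reads for Itgb2 against 466 and 424 in the other replicates, which its FPKM does not show. Itgb2 lies on chromosome 10 of GRCm38, from 77530252 to 77565708 on the plus strand (GENCODE M21).

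Itgax, the CD11c chain, had the widest difference of the 9 between the fetal liver cultures. Itgax stood at 149.9, 157 and 153 scaled FPKM in the FLM_G libraries, at 1.58, 1.46 and 1.52 in FLM_M, and at 2.13, 2.72 and 2.56 in BMM. Only FLM_G had more than a few FPKM, and no culture overlapped another. The means were 153 ± 3.46 in FLM_G, 1.52 ± 0.0608 in FLM_M and 2.47 ± 0.306 in BMM. Itgax was 101-fold higher in FLM_G than in FLM_M (log2 difference 5.94, SE 0.07, adjusted p = 1.94e-11), 48 in order of size among 11952 genes. It was 62.1-fold higher in FLM_G than in BMM (5.48, SE 0.07, adjusted p = 4.3e-11), 47 in that order. Relative to BMM it fell by 0.46 in FLM_M (SE 0.07, adjusted p = 0.000673). That last call was lost when tested against a 1.5-fold change (adjusted p = 1). In the count table, with 3 reads over the FLM_M libraries and 2 over the BMM libraries, the call was lost by both count tests, with 0.040 by edgeR (adjusted p = 0.989) and -0.013 by DESeq2 (adjusted p = 0.999).

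Itgam, the CD11b chain, was lowest in FLM_G, where Itgax was highest. Itgam stood at 29.3, 26.3 and 23.8 scaled FPKM in the FLM_G libraries, at 109, 82.8 and 97.2 in FLM_M, and at 81.7, 74.3 and 82.8 in BMM. Every FLM_G library was below every other, and FLM_M replicate 2 lay within the BMM range. The means were 26.5 ± 2.73 in FLM_G, 96.3 ± 13.1 in FLM_M and 79.6 ± 4.62 in BMM. Itgam fell by 1.82 in FLM_G relative to FLM_M (SE 0.11, adjusted p = 5.98e-07) and fell by 1.56 relative to BMM (SE 0.11, adjusted p = 2.05e-06), both on the log2 scale. FLM_M against BMM gave a log2 difference of 0.26 (95% confidence interval 0.02 to 0.51, adjusted p = 0.0782), which was not called. It was called without FLM_M replicate 2 (0.37, adjusted p = 0.0182) and without scaling between libraries (0.33, adjusted p = 0.0413). In the count table it was called as well, with 0.87 by edgeR (adjusted p = 0.01).

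Itgam and Itgax, with opposite orders of the cultures, are neighbours in the genome. On GRCm38 (GENCODE M21), Itgam runs from 128062640 to 128118491 and Itgax from 128129547 to 128150657, both on the plus strand of chromosome 7, with 11.1 kb between them. Itgad, the CD11d chain, starts 3.72 kb after Itgax and was near or at 0, with 0.0656, 0 and 0.029 scaled FPKM in FLM_G and 0 in all libraries of FLM_M and BMM. On the other side of Itgam, Trim72 averaged 0.202 ± 0.0764 in FLM_G, 0.0162 ± 0.0148 in FLM_M and 0 in BMM. Of these 4 genes, Itgam and Itgax were thus the ones with RNA above 1 FPKM. A same-strand gene model, Gm49368, overlaps Itgam and the space up to Itgax and was not analysed here.

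The sequences around the start sites of this pair are shown because the genes are close together and moved in opposite directions in FLM_G. They are from RefSeq (GRCm38.p6) and cover 250 bases before to 50 bases after the annotated start, with chr7:128062390-128062689 for Itgam and chr7:128129300-128129599 for Itgax, both on the plus strand and printed 5′ to 3′. Capitals mark GAGGAA or its reverse complement TTCCTC, letters that the myeloid factor PU.1 is known to bind.
Itgam: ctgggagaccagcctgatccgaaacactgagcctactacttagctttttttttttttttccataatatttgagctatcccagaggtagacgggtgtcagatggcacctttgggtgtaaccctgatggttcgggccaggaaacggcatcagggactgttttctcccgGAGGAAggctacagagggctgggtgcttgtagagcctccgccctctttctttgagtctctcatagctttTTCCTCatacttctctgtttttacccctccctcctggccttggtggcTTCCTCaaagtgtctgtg
Itgax: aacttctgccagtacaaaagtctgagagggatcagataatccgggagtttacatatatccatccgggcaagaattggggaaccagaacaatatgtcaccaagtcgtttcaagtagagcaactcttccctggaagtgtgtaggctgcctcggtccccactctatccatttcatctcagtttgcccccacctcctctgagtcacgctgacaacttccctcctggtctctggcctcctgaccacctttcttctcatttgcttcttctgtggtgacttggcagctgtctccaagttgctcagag

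The Itgam window held 3 such matches, beginning 84 and 15 bases before the start and 32 bases after it, and the Itgax window held 0. The shorter letters GGAA or TTCC, which lie within the longer ones, occurred 5 times in the Itgam window and 4 times in that of Itgax. Over all 32851 promoter windows of the table, 28.3% held GAGGAA on either strand and 96.0% held GGAA. Of the 9 integrin genes 6 had a window in the table, and 4 of these held GAGGAA. A match is a stretch of letters and says nothing about binding in these cells.

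Itgal, the CD11a chain of LFA-1, was the 1 member that was higher in both fetal liver cultures than in BMM. Itgal stood at 40.01, 39.9 and 37.5 scaled FPKM in the FLM_G libraries, at 48.3, 36.4 and 39.4 in FLM_M, and at 18.1, 18.2 and 16.5 in BMM. The FLM_G and FLM_M ranges overlapped, and every BMM library was below both. Itgal averaged 39.2 ± 1.41 in FLM_G, 41.3 ± 6.18 in FLM_M and 17.6 ± 0.942 in BMM. It was 2.22-fold higher in FLM_G than in BMM (log2 difference 1.11, SE 0.10, adjusted p = 9.15e-06) and 2.35-fold higher in FLM_M than in BMM (1.18, SE 0.10, adjusted p = 1.46e-05). Between FLM_G and FLM_M the difference was -0.07 (95% confidence interval -0.29 to 0.15, adjusted p = 0.554). Without scaling between libraries that difference was -0.54 and was called (adjusted p = 0.000968), so its call rests on the scaling. Itgal lies on the same chromosome, from 127296260 to 127335138, 727.5 kb before Itgam, and its neighbour Sephs2 averaged 27.9 scaled FPKM in FLM_G, 34.1 in FLM_M and 43.5 in BMM, where it was highest.

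**Figure D2:**
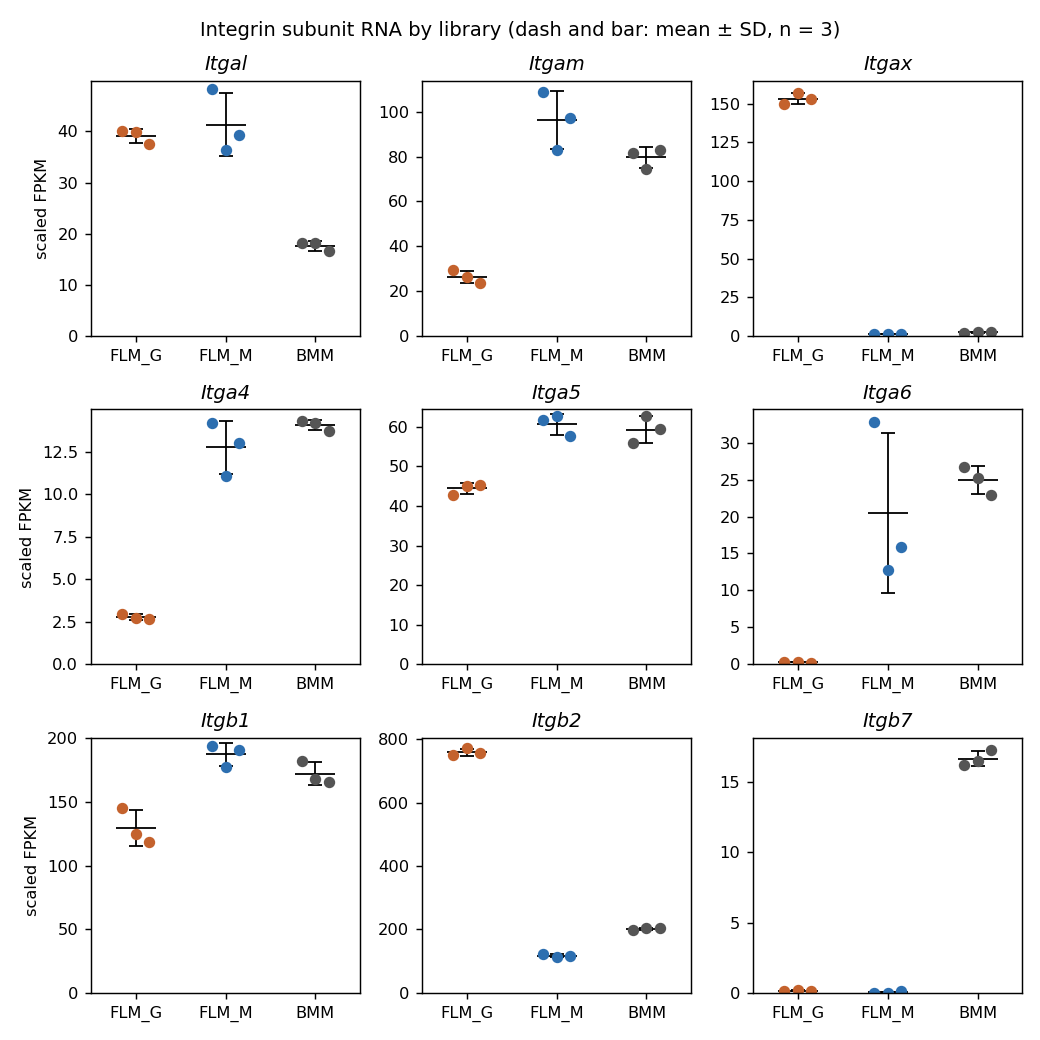
Scaled FPKM of each of the 9 integrin genes (vertical axes, linear and each from 0) in the FLM_G, FLM_M and BMM libraries, 1 point per library, with the mean and SD of 3. Itgax and Itgb2 are high in FLM_G, Itgb7 is seen in BMM, Itga4 and Itga6 are low in FLM_G, and Itga6 has 1 FLM_M library far above the other two.

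The CD11 chain with the most RNA was not the same in all cultures. Within a library, the share of each chain in the summed FPKM of Itgal, Itgam, Itgax and Itgad does not depend on scaling between libraries. In FLM_G, Itgax made up 70.0% ± 1.51 of that sum, Itgal 17.9% ± 0.367 and Itgam 12.1% ± 1.14 (SD, n = 3). In FLM_M, Itgam made up 69.2% ± 1.01, Itgal 29.7% ± 1.02 and Itgax 1.1% ± 0.107. In BMM, Itgam made up 79.8% ± 1.64, Itgal 17.7% ± 1.44 and Itgax 2.48% ± 0.385. The leading chain was thus Itgax in every FLM_G library and Itgam in every other library. The share of Itgal was 29.7% in FLM_M against 17.7% in BMM with no overlap, while the shares in FLM_G and BMM overlapped (17.9% in FLM_G against 17.7% in BMM, exact permutation p = 0.8, two-sided). With 3 libraries against 3 an exact test cannot give a p below 0.1. Of 36 such comparisons of shares, sums and ratios 28 had groups that did not overlap. Each of the 28 had an exact p = 0.1, or 0.129 after Benjamini-Hochberg adjustment, so none of the 36 passed 0.05. Levels of all genes tested did not overlap in 72.4% (FLM_G against FLM_M), 73.2% (FLM_G against BMM) and 57.3% (FLM_M against BMM). The 36 are not separate, since the shares of a set add up to the whole and the sum beside Itgb7 is Itga4 alone.

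The level of the beta chain relative to its alpha chains also had no overlap between cultures. Itgb2 over the summed FPKM of the 4 CD11 chains was 3.42, 3.46 and 3.53 in the FLM_G libraries, 0.775, 0.937 and 0.85 in FLM_M, and 1.94, 2.15 and 1.995 in BMM. FLM_G had the highest ratio and FLM_M the lowest, with no overlap. The summed CD11 chains, as deposited and without scaling, came to 177 ± 4.9 FPKM in FLM_G, 158 ± 22.4 in FLM_M and 108 ± 4.06 in BMM. The FLM_M libraries thus had more CD11 chain FPKM than every BMM library beside less Itgb2.

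**Figure D3:**
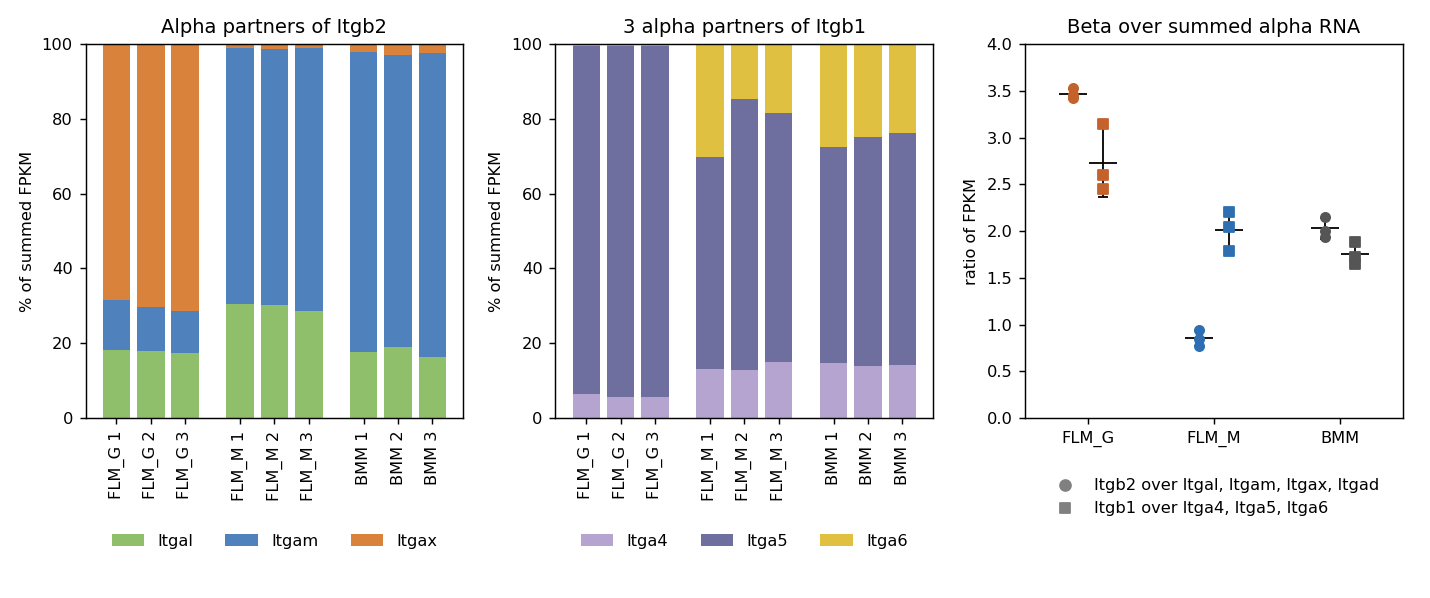
Left and middle, the percent of summed FPKM taken by each alpha chain in each library, for the partners of Itgb2 and for the 3 partners of Itgb1 among the members. Right, the ratio of beta to summed alpha FPKM per library, with the mean and SD of 3, for Itgb2 (circles) and Itgb1 (squares); Itgax fills 70.0% of the FLM_G bars at left on average, and the FLM_M circles lie lowest.

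Itgb1, the beta chain of the fibronectin and laminin receptors, was among the 3 most abundant members in every culture. Itgb1 stood at 145, 125 and 118 scaled FPKM in the FLM_G libraries, at 194, 177 and 191 in FLM_M, and at 182, 168 and 166 in BMM. FLM_G lay below both others, and the FLM_M and BMM ranges overlapped. Itgb1 averaged 129 ± 13.9 in FLM_G, 187 ± 8.93 in FLM_M and 172 ± 8.99 in BMM. It fell by 0.53 in FLM_G relative to FLM_M (SE 0.08, adjusted p = 0.00032) and fell by 0.41 relative to BMM (SE 0.08, adjusted p = 0.00175), on the log2 scale. Neither was called against a 1.5-fold change (adjusted p = 1 for both), and in the count table edgeR gave -0.61 against FLM_M with no call (adjusted p = 0.054) and -0.87 against BMM with a call (adjusted p = 0.00636). FLM_M against BMM gave 0.12 (95% confidence interval -0.06 to 0.31, adjusted p = 0.255), and the count table gave the opposite sign (-0.26 by edgeR, adjusted p = 0.513). Itgb1 lies on chromosome 8 of GRCm38, from 128685654 to 128733200 on the plus strand.

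Itga5, the alpha chain of the fibronectin receptor, had the smallest ratio of the 9 between its highest and lowest culture mean. Itga5 stood at 42.8, 45.1 and 45.4 scaled FPKM in the FLM_G libraries, at 61.7, 62.7 and 57.6 in FLM_M, and at 55.8, 62.6 and 59.4 in BMM. FLM_G was below both others without overlap, and the FLM_M and BMM ranges overlapped. It fell by 0.44 in FLM_G relative to FLM_M (SE 0.06, adjusted p = 0.000106) and fell by 0.41 relative to BMM (SE 0.06, adjusted p = 0.000204), on the log2 scale. Both calls were again lost against a 1.5-fold change (adjusted p = 1), and in the count table by edgeR (adjusted p = 0.0895 against FLM_M and 0.752 against BMM). FLM_M against BMM gave 0.03 (95% confidence interval -0.09 to 0.16, adjusted p = 0.668). The gene lies on chromosome 15, from 103344286 to 103366763 on the minus strand.

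Itga4, the alpha chain of VLA-4 that also pairs with Itgb7, was low in FLM_G. Itga4 stood at 2.99, 2.75 and 2.66 scaled FPKM in the FLM_G libraries, at 14.2, 11.1 and 13.0 in FLM_M, and at 14.3, 14.2 and 13.7 in BMM. FLM_G was far below the others, whose ranges overlapped. The means were 2.8 ± 0.172 in FLM_G, 12.8 ± 1.56 in FLM_M and 14.1 ± 0.318 in BMM. It fell by 1.85 in FLM_G relative to FLM_M (SE 0.08, adjusted p = 9.08e-08) and fell by 1.99 relative to BMM (SE 0.08, adjusted p = 6.24e-08), on the log2 scale. FLM_M against BMM gave -0.14 (95% confidence interval -0.33 to 0.05, adjusted p = 0.216). Itga4 lies on chromosome 2, from 79255426 to 79333123 on the plus strand, and its 3′ end overlaps Cerkl on the opposite strand, which had at most 0.291 scaled FPKM in any library.

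Itga6, the alpha chain of laminin receptors, was near 0 in FLM_G and uneven in FLM_M. Itga6 stood at 0.3, 0.3 and 0.261 scaled FPKM in the FLM_G libraries, at 32.8, 12.8 and 15.9 in FLM_M, and at 26.7, 25.3 and 23.0 in BMM. The FLM_M values surrounded those of BMM, with replicate 1 above all BMM libraries and the other replicates below. The means were 0.287 ± 0.0225 in FLM_G, 20.5 ± 10.8 in FLM_M and 25.0 ± 1.88 in BMM. It fell by 3.95 in FLM_G relative to FLM_M (SE 0.28, adjusted p = 1.95e-06) and fell by 4.33 relative to BMM (SE 0.28, adjusted p = 1.18e-06), on the log2 scale. These sizes depend on the 1 FPKM added before taking logs. With 0.1 added they were -5.61 against FLM_M and -6.02 against BMM. Itga6 also entered the test through FLM_M and BMM alone, so a difference of FLM_G from them follows from how it entered. FLM_M against BMM gave -0.38 (95% confidence interval -1.02 to 0.25, adjusted p = 0.3), and without FLM_M replicate 1 it was -0.77 and was called (adjusted p = 0.000604). The deposited counts of Itga6 were 105, 83 and 104 in the FLM_M libraries and so varied less than the FPKM. FLM_M replicate 1 was the highest library of its culture in 7 of the 9 members and replicate 2 the lowest in 8. The same share over all genes is not given here, so a shift of the whole library cannot be told apart from one of the members. The part of these libraries in the results was not tested beyond leaving each out. Itga6 lies on chromosome 2, from 71745616 to 71858416 on the plus strand.

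Among these 3 partners of Itgb1, Itga5 led in every library. In FLM_G, Itga5 made up 93.5% ± 0.564 of their summed FPKM, Itga4 5.91% ± 0.516 and Itga6 0.604% ± 0.0574 (SD, n = 3). In FLM_M, Itga5 made up 65.3% ± 7.93, Itga6 21.1% ± 8.09 and Itga4 13.6% ± 1.22. In BMM, Itga5 made up 60.3% ± 2.28, Itga6 25.4% ± 1.91 and Itga4 14.3% ± 0.447. The FLM_M and BMM shares overlapped for all 3 chains, and those of FLM_G overlapped neither. Itgb1 over this sum was 2.73 ± 0.367 in FLM_G, 2.01 ± 0.214 in FLM_M and 1.75 ± 0.121 in BMM. In FLM_G the sum was thus lower by more than Itgb1 was. That held for Itga4 and Itga6 but not for Itga5. In FLM_G, Itga5 differed by -0.44 against FLM_M and -0.41 against BMM on the log2 scale, beside -0.53 and -0.41 for Itgb1.

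Itgb7, the beta chain of the gut-homing receptor LPAM-1, was detected at more than 1 FPKM in BMM alone. Itgb7 stood at 0.139, 0.175 and 0.159 scaled FPKM in the FLM_G libraries, at 0.0274, 0 and 0.103 in FLM_M, and at 16.2, 16.5 and 17.2 in BMM. The BMM libraries lay far above all 6 fetal liver libraries. On the log2 scale Itgb7 fell by 4.08 in FLM_M relative to BMM (SE 0.05, adjusted p = 6.07e-10), 11 in order of size among 11952 genes, and fell by 3.93 in FLM_G relative to BMM (SE 0.05, adjusted p = 6.49e-11). With levels this close to 0 these sizes depend on the 1 FPKM added before taking logs. Itgb7 also entered the test through BMM alone, so a difference from BMM follows from how it entered. The deposited counts were 0, 1 and 0 in FLM_G, 0, 0 and 1 in FLM_M, and 7, 7 and 7 in BMM. FLM_G against FLM_M was called at 0.15 (SE 0.05, adjusted p = 0.0322), at a level where both cultures are close to 0. That call was lost without scaling (adjusted p = 0.108), without FLM_M replicate 1 (0.0808) or replicate 2 (0.101), and without FLM_G replicate 2 (0.092) or replicate 3 (0.0685).

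Since Itgb7 is also a gene of lymphocytes, their markers are given beside it. Of 6 B cell markers, all were at 0 in every FLM_G and FLM_M library, and in BMM their summed level was 2.38 to 2.77 scaled FPKM. In BMM, Ighm averaged 1.49 ± 0.256 and Cd79b 1.02 ± 0.0884, and 3 of the 6 were at 0. The 10 T and NK cell markers summed to 0.202 to 0.3 in FLM_G, 0.0363 to 0.106 in FLM_M and 0.0263 to 0.0801 in BMM. In bulk RNA, more RNA per cell and more cells of a type cannot be told apart, and the part of these markers in the Itgb7 level was not tested. The partners of Itgb7 did not share its pattern over all 3 cultures. Itga4, like Itgb7, was lower in FLM_G than in BMM (log2 difference -1.99), but Itga4 in BMM and FLM_M overlapped. Itgb7 over Itga4 was 0.0566 ± 0.00907 in FLM_G, 0.00328 ± 0.00413 in FLM_M and 1.18 ± 0.0656 in BMM. Itgae, the other partner, was at 0 FPKM in 8 of the 9 libraries and at 0.0109 scaled FPKM in FLM_M replicate 3, although the count table held 5 to 25 reads for it in each library. The gene Haspin lies inside Itgae on the opposite strand.

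The start of Itgb7 is shown because its RNA exceeded 1 FPKM in BMM alone. The window is chr15:102231886-102232185 on the minus strand (RefSeq, GRCm38.p6, 250 bases before to 50 after the start), printed 5′ to 3′ along that strand, with capitals as above. The gene spans 102215995 to 102231944 of chromosome 15 in GENCODE M21.
Itgb7: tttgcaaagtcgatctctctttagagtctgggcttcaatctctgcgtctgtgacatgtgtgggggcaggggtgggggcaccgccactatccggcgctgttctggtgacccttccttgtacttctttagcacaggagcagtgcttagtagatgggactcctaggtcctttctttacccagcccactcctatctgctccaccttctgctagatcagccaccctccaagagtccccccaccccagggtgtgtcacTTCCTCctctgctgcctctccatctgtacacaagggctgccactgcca

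It held 1 match, TTCCTC, beginning 2 bases after the start. The windows of Itga5 and Itgb1 also held 1 match each, and that of Itga4 held 0. Whether a match plays a part in the level of any of these genes was not tested.

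The members were also ordered by their mean level within each culture. In FLM_G the order was Itgb2, Itgax, Itgb1, Itga5, Itgal, Itgam, Itga4, Itga6 and Itgb7, and no neighbours in it overlapped. In FLM_M it was Itgb1, Itgb2, Itgam, Itga5, Itgal, Itga6, Itga4, Itgax and Itgb7, and Itga6 and Itga4 overlapped. In BMM it was Itgb2, Itgb1, Itgam, Itga5, Itga6, Itgal, Itgb7, Itga4 and Itgax, and Itgal and Itgb7 overlapped. Groups that did not overlap numbered 8 of 9 members in FLM_G against FLM_M (72.4% of all genes tested), 9 in FLM_G against BMM (73.2%) and 4 in FLM_M against BMM (57.3%). Within a culture the coefficient of variation had a median over members of 6.12% in FLM_G, 12.2% in FLM_M and 5.35% in BMM.

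Of 18 other integrin subunits listed, 4 passed the minimum, Itgb5, Itga9, Itgav and Itga8. Itga9 did so through FLM_M and BMM and Itga8 through BMM alone, so a difference from the cultures below it follows from how they entered. FLM_G against FLM_M had 0 higher (35.5% of all genes tested) and 3 lower (35.1%) of the 4. FLM_G against BMM had 0 higher (33.8%) and 4 lower (34.1%), and FLM_M against BMM had 1 higher (22.7%) and 2 lower (21.9%). Itgb5, which pairs with the vitronectin-binding chain Itgav, averaged 14.0 ± 1.58 scaled FPKM in FLM_G, 68.0 ± 1.89 in FLM_M and 104 ± 2.42 in BMM. It fell by 2.21 in FLM_G relative to FLM_M (adjusted p = 1.27e-08), fell by 2.81 in FLM_G relative to BMM (adjusted p = 3.04e-09) and fell by 0.60 in FLM_M relative to BMM (adjusted p = 0.000209), on the log2 scale. Itga9, an alpha chain that pairs with Itgb1 and binds tenascin-C and osteopontin, was listed at 0 in all FLM_G libraries, and averaged 8.88 ± 0.851 in FLM_M and 1.15 ± 0.0654 in BMM. It was 7.73-fold higher in FLM_M than in BMM (adjusted p = 2.55e-08). Itgav stood at 5.03, 0.936 and 3.01 in FLM_G, at 4.57, 2.56 and 2.86 in FLM_M, and at 6.57, 6.38 and 5.48 in BMM, and fell by 0.98 in FLM_G relative to BMM (SE 0.36, adjusted p = 0.0393).

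The 6 member alpha chains held 97.7% to 99.1% of the summed scaled FPKM of all 18 alpha genes in the FLM_G libraries, 94.7% to 94.96% in FLM_M and 95.3% to 95.9% in BMM. For the 9 beta genes the 3 members held 98.3% to 98.6% in FLM_G, 81.4% to 81.9% in FLM_M and 78.8% to 79.2% in BMM, and Itgb5, at a mean of 104 in BMM, stood above every member there except Itgb2 and Itgb1. All beta genes summed to 903 ± 12.2 scaled FPKM in FLM_G, 373 ± 15.6 in FLM_M and 494 ± 7.3 in BMM. All alpha genes summed to 271 ± 3.53 in FLM_G, 246 ± 33.0 in FLM_M and 207 ± 1.09 in BMM.

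Of 27 ligands and counter-receptors listed, 11 passed the minimum. FLM_G against FLM_M had 5 higher and 6 lower, where 70.6% of all genes were called, with a median log2 difference of -0.59 beside 0.0017 over all genes tested. FLM_G against BMM had 6 higher and 4 lower, where 68.0% of all genes were called, with a median of 0.22 beside -0.00032. FLM_M against BMM had 4 higher and 5 lower, where 44.6% of all genes were called, with a median of 0.03 beside -0.0015.

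C3, the source of the iC3b fragment that CD11b and CD11c bind, averaged 89.8 ± 1.76 scaled FPKM in FLM_G, 68.3 ± 4.81 in FLM_M and 3.93 ± 0.244 in BMM. It was 22.8-fold higher in FLM_G than in BMM (adjusted p = 8.98e-11) and 17.4-fold higher in FLM_M than in BMM (adjusted p = 7.85e-10). Spp1, osteopontin, averaged 4158 ± 239 in FLM_G, 1450.5 ± 152 in FLM_M and 774 ± 27.5 in BMM, 5.37-fold higher in FLM_G than in BMM (adjusted p = 2.19e-08) and 1.88-fold higher in FLM_M than in BMM (adjusted p = 4.25e-05). Both genes were thus higher in each fetal liver culture than in BMM. F11r, the junctional molecule JAM-A that CD11a binds, averaged 22.9 ± 0.379 in FLM_G, 3.3 ± 0.0338 in FLM_M and 8.72 ± 0.352 in BMM. It was 6.93-fold higher in FLM_G than in FLM_M (adjusted p = 3.04e-10) and fell by 1.18 in FLM_M relative to BMM (adjusted p = 1.31e-07).

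Cdh1, E-cadherin, the ligand of the pair of Itgae and Itgb7, averaged 25.2 ± 1.35 scaled FPKM in FLM_G and 0.154 ± 0.0523 in BMM, and was listed at 0 in all FLM_M libraries. On the log2 scale it was higher by 4.51 in FLM_G than in BMM (adjusted p = 4.74e-11) and by 4.71 than in FLM_M (adjusted p = 2.62e-11). It passed the minimum for testing through FLM_G alone, so these differences follow from how it entered. The receptor chains Itgae and Itgb7 were at or near 0 in FLM_G. Col18a1, a basement membrane collagen that entered through FLM_M and BMM, averaged 0.00401 ± 0.00695 in FLM_G, 7.04 ± 0.485 in FLM_M and 13.3 ± 0.154 in BMM. It fell by 3.83 in FLM_G relative to BMM (adjusted p = 9.41e-11), fell by 3.00 in FLM_G relative to FLM_M (adjusted p = 2.9e-10), and fell by 0.83 in FLM_M relative to BMM (adjusted p = 4.41e-06). Lamc1, a laminin chain, averaged 2.6 ± 0.782 in FLM_G and 10.2 ± 1.56 in FLM_M, and fell by 1.66 in FLM_G (adjusted p = 3.19e-05).

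Of 43 integrin activation and adaptor genes listed, 37 passed the minimum. FLM_G against FLM_M had 17 higher and 12 lower, where 70.6% of all genes were called, with a median log2 difference of 0.23 beside 0.0017 over all genes tested. FLM_G against BMM had 17 higher and 14 lower, where 68.0% of all genes were called, with a median of 0.07 beside -0.00032. FLM_M against BMM had 9 higher and 13 lower, where 44.6% of all genes were called, with a median of -0.08 beside -0.0015.

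Cd9, a tetraspanin that associates with integrins, averaged 1440.2 ± 56.6 scaled FPKM in FLM_G, 81.4 ± 6.32 in FLM_M and 169 ± 8.04 in BMM. It was 17.7-fold higher in FLM_G than in FLM_M (adjusted p = 1.19e-10) and 8.52-fold higher than in BMM (adjusted p = 8.61e-10), and fell by 1.05 in FLM_M relative to BMM (adjusted p = 2.86e-06). Itgb2 had the same order of cultures, FLM_G, BMM and FLM_M. Fgr, a Src-family kinase that signals downstream of β2 integrins, averaged 51.0 ± 2.77 in FLM_G, 0.00921 ± 0.00802 in FLM_M and 1.87 ± 0.12 in BMM, and was 27.2-fold higher in FLM_G than in BMM (adjusted p = 7.9e-11). Cytip, which binds cytohesin-1, a regulator of CD11a adhesion, averaged 16.5 ± 0.672 in FLM_G, 0.202 ± 0.0215 in FLM_M and 2.01 ± 0.132 in BMM. It was 81.8-fold higher in FLM_G than in FLM_M (adjusted p = 6.44e-11). Cytip passed the minimum through FLM_G and BMM, so the difference from FLM_M follows from how it entered. Tln2, a talin that links integrin tails to actin, averaged 5.8 ± 0.246 in FLM_G and 0.0273 ± 0.0115 in BMM, higher by 2.73 on the log2 scale (adjusted p = 1.18e-10). Tln2, like Cdh1, passed the minimum through FLM_G alone, so this difference follows from how it entered.

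Other adaptors went the other way or split the fetal liver cultures. Fyb, the adaptor ADAP, averaged 1.28 ± 0.0424 scaled FPKM in FLM_G, 58.7 ± 7.9 in FLM_M and 60.9 ± 0.729 in BMM. It fell by 4.70 in FLM_G relative to FLM_M (adjusted p = 2.64e-10) and fell by 4.76 relative to BMM (adjusted p = 3.05e-10), and FLM_M against BMM gave -0.06 (adjusted p = 0.603). Its partner Skap2 averaged 84.8 ± 1.22 in FLM_G, 97.3 ± 3.3 in FLM_M and 100.1 ± 1.49 in BMM, and FLM_M against BMM gave -0.04 (adjusted p = 0.456). Vcl, vinculin, was 2.1-fold higher in FLM_M than in BMM (15.7 ± 1.63 in FLM_M against 7.48 ± 0.423 in BMM, adjusted p = 1.09e-05), as was the tetraspanin Cd81 by 1.86-fold (137 ± 2.38 in FLM_M against 73.5 ± 2.65 in BMM, adjusted p = 1.32e-06). Parvg, a parvin of the integrin-linked kinase complex, averaged 58.8 ± 3.97 in FLM_G, 10.7 ± 0.679 in FLM_M and 22.3 ± 0.661 in BMM. It was thus highest in FLM_G, and fell by 1.00 in FLM_M relative to BMM (adjusted p = 3.16e-06).

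Rap1b and Tyrobp, both abundant, were not called between FLM_M and BMM, but their FLM_G libraries lay outside the range of both cultures. In FLM_G, Rap1b averaged 180 ± 25.7 scaled FPKM and Tyrobp 2408 ± 196. Rap1b, a small GTPase that activates integrins, averaged 263 ± 14.9 scaled FPKM in FLM_M and 277 ± 12.3 in BMM (-0.08, adjusted p = 0.576). Tyrobp, the adaptor DAP12, averaged 1037 ± 95.6 in FLM_M and 914 ± 7.97 in BMM (0.18, adjusted p = 0.12). Between FLM_G and BMM, Flna, filamin A, averaged 120.0 ± 16.3 in FLM_G and 119 ± 3.28 in BMM (0.0022, adjusted p = 0.992), and Cd81 76.8 ± 3.95 in FLM_G and 73.5 ± 2.65 in BMM (0.06, adjusted p = 0.304). A p above the threshold does not show that these levels were equal.

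**Figure D4:**
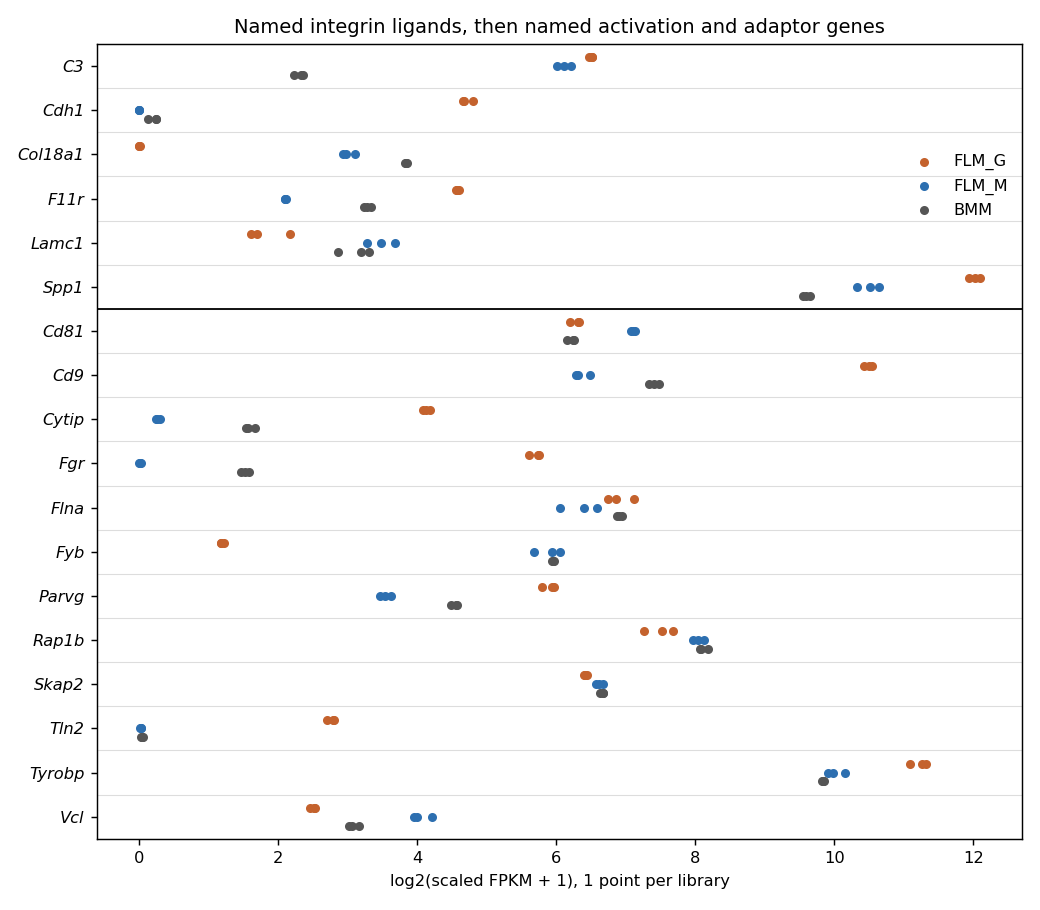
log2(scaled FPKM + 1) of the named ligands (above the line) and the named activation and adaptor genes (below it) in the FLM_G, FLM_M and BMM libraries, 1 point per library. Cd9, Fgr, Cytip, Tln2 and Cdh1 lie right of the other cultures in FLM_G, Fyb and Col18a1 left of them, and C3 is low in BMM alone.

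For each member, the 2 genes with the most similar pattern were found by the root-mean-square difference of centred log2(scaled FPKM + 1) over the 9 libraries, among 11933 genes, as a description. Itgb2 was nearest to the lysozymes Lyz2 (0.0761) and Lyz1 (0.0762). Lyz2 averaged 25599.9 scaled FPKM in FLM_G, 3652 in FLM_M and 6408 in BMM. Itgax was nearest to Serpinb1a (0.161) and Kazald1 (0.185), Itgam to Ell2 (0.0892) and Lin9 (0.104), and Itgal to Rragd (0.0946) and Lima1 (0.117). Itga4 was nearest to Parp1 (0.0626) and Tnfrsf14 (0.081), Itga5 to Rnps1 (0.0425) and Trim65 (0.0439), and Itgb1 to Uhrf1bp1l (0.0413) and Lsm14a (0.05). Itga6, at 0.318 to Cadm1 and 0.382 to Dusp4, had the loosest matches. Itgb7 was nearest to Nptx1 (0.164), at 0 scaled FPKM in FLM_G, 0.0747 in FLM_M and 13.5 in BMM, and to Adgre5 (0.208). With 0.1 FPKM added in place of 1, 6 of the 18 pairs were found again, so most of these names depend on that choice.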

How the data were processed

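Libraries came from a stranded mRNA preparation and were sequenced single-end over 101 cycles, per the labels' protocols. The submitters' processing notes name the builds GRCm38 and mm10 and the tools HISAT2, StringTie, DESeq2, cutadapt, FastQC and bcl2fastq. Their versions, and which tool made which table, are not given in the sources used here. The authors deposited 2 tables over 46078 genes, whole-number read counts without normalization and FPKM normalized to transcript length and library size.

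The counts summed to 782400 to 1170813 per library, far below the 28400000 to 35500000 reads judged from low FPKM values. That range was limited by the window searched. Itgae had counts where its FPKM was 0. The deposited FPKM were therefore the measure used, and the deposited counts an alternative (edgeR 4.0.16 and DESeq2 1.42.0). The kit being stranded, the counts may have been made with the opposite strand setting, which was not tested here, so they and their tests may not measure a gene's own reads.

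FPKM were divided by TMM factors (edgeR, unweighted). Without scaling, the median log2 difference over all genes moved to 0.05 in FLM_M against BMM, -0.34 in FLM_G against BMM and -0.39 in FLM_G against FLM_M. Genes reaching 1 FPKM in at least 3 libraries entered a test on log2(scaled FPKM + 1) with limma 3.58.1 (trend, R 4.3.3). The fit had 1 mean per culture and 6 residual degrees of freedom, with Benjamini-Hochberg adjustment over all 11952 genes. It was also run on simulated data with 200 changed genes. Far more genes were called in each comparison here, so that run does not show how the fit behaves in this setting. Intervals are 95% confidence intervals. Positions are from GENCODE M21, in which 45143 of the 46078 identifiers were found. Shares of chains were compared by exact two-sided permutation tests (scipy 1.17.1) on FPKM as deposited. The members, the gene lists and the tests were chosen with earlier results of these data known. All members are named. Of each list, up to 4 called genes with the largest change and a mean of at least 5 scaled FPKM, and genes with no call and a mean of at least 50, are named.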

Additional observations from a re-analysis of the deposited data

How the results depend on the processing

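Of 534 values of members under 12 kinds of alternative, 499 kept their direction and call, 21 lost the call, 7 gained it and 7 changed sign. The count fits held 8 of the 9 members, without Itgb7. In FLM_M against BMM they called 2 by edgeR and 2 by DESeq2, each 2 higher and 0 lower with 1 of them shared with the 4 called on FPKM (1 higher, 3 lower). In FLM_G against BMM they called 7 by edgeR and 7 by DESeq2, and the test against a 1.5-fold change 7, against 9. In FLM_G against FLM_M each of these called 5, against 8. Over all genes in FLM_M against BMM, edgeR called 1300 of 7490 (17.4%), DESeq2 933 of 7490 (12.5%) and the test against a 1.5-fold change 1045 of 11952 (8.74%), beside 5329 (44.6%). In FLM_G against BMM they called 2458 (32.8%), 2070 (27.6%) and 2740 (22.9%) in that order, beside 8125 (68.0%), and in FLM_G against FLM_M 2855 (38.1%), 2439 (32.6%) and 3162 (26.5%), beside 8441 (70.6%). The signs that changed belong to differences that were not called, except Itgax in FLM_M against BMM (0.040 by edgeR). They were Itga5 in FLM_M against BMM (-0.0081 to 0.073 as each library was left out, negative without BMM replicate 1), Itgb1 in FLM_M against BMM (-0.26 by edgeR, -0.34 by DESeq2) and Itgal in FLM_G against FLM_M (-0.15 to 0.047 as each library was left out, positive without FLM_M replicate 1, 0.00049 by edgeR, 0.044 by DESeq2). The cause was not tested.

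With 1 FPKM added to each subunit, the shares were 68.1% for Itgam in FLM_M and 77.9% in BMM, 1.7% for Itgax in FLM_M and 3.29% in BMM, 7.89% for Itga4 in FLM_G and 14.9% in BMM, and 89.1% for Itga5 and 2.97% for Itga6 in FLM_G. Without scaling, Itga5 and Itgb1 fell by 0.82 and 0.83 in FLM_G relative to BMM, about as far again as with it. The count table held 0 or 1 read of Itgb7 in each fetal liver library.

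The replicate numbers of the titles were tried as a block. Deviations from the culture mean correlated at -0.08 to 0.09 between same-numbered libraries, and 7 of 9 libraries correlated best with their own number. Correlations this small cannot decide whether the numbers are a pairing. With the replicate block the called members were 8 in FLM_G against FLM_M, 9 in FLM_G against BMM and 5 in FLM_M against BMM, where Itgam gained its call (0.26, adjusted p = 0.0448).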
